A study of Danio rerio with 7 samples.

Results

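A promoter is the stretch of DNA around the start site of a gene, where the transcription machinery assembles. The regions described here are the peaks of accessible chromatin that differed between kdrl:GFP+ and kdrl:GFP- cells of the zebrafish embryo and that the deposited annotation places at a transcription start site (class promoter-TSS). Chosen with earlier results of these data known, members were taken by that annotation alone from peaks past the authors' p-value threshold, whatever their direction. They numbered 899 of 44025 differential peaks, or 2.04%, and lay next to 884 named genes.

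The cells came from Tg(kdrl:GFP)s843 embryos at 26-27 hours post fertilisation (hpf), in which the promoter of kdrl, a receptor for vascular endothelial growth factor, drives green fluorescent protein (GFP). The kdrl:GFP+ cells were those with high GFP, and the kdrl:GFP- cells were those without it, sorted from dissociated whole embryos, with 40000 to 50000 sorted cells per library. Both groups carry the transgene and neither carries another genetic change or treatment. The labels give 3 kdrl:GFP+ libraries, 3 kdrl:GFP- libraries and 1 library of genomic DNA, from embryos of 28-30 hpf, which served as the control for peak calling and gives no value below.

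In ATAC-seq, the transposase Tn5 cuts where nucleosomes leave the DNA free, so a peak marks open chromatin. Promoters of many genes are open in most cell types, while enhancers tend to be open only where they are used. In the endothelium, ETS factors such as Fli1 and Etv2 and their partners Tal1 and Lmo2 are known to bind the promoters and enhancers of vascular genes. The nervous system, the muscle and the skin make up much of an embryo at this stage, so these tissues contribute to the kdrl:GFP- cells.

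Each peak has 1 concentration per group, a mean over the pooled libraries of normalized reads on the log2 scale, and the difference used below is the concentration in kdrl:GFP+ cells minus that in kdrl:GFP- cells. A difference of 1 is a doubling. No value per library was analysed here, so there is no spread between replicates, and no difference carries an error or a test. Every listed peak had already passed the p-value threshold of the authors, so the directions and sizes are descriptions. In sorted populations, a site open in more of the cells and a site more open in each cell cannot be told apart. The depth behind each value is unknown.

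Of the 899 promoter peaks, 387 had the higher concentration in kdrl:GFP+ cells and 512 the lower. The higher share was 43.0% (exact Clopper-Pearson interval 39.8% to 46.4%, which covers counting error only), against 44.7% of all differential peaks. The promoter peaks thus divided between the groups much as the whole table did. Differences above 3 were found at 100 promoter peaks (11.1%), against 17.8% of all peaks, and differences below -3 at 63 (7.01%), against 13.3% of all peaks. At a linear 3-fold limit, 229 promoter peaks were higher (25.5%, against 35.3% of all peaks) and 243 were lower (27.0%, against 39.3%). The larger count thus passed to the lower side, as it did over all peaks. Strong differences in either direction, by both limits, made up a smaller share of promoter peaks than of all peaks.

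The promoter peaks were higher in signal than other peaks in both groups. Their median concentration was 6.58 in kdrl:GFP+ cells and 6.60 in kdrl:GFP- cells, against 5.74 and 5.73 for all other peaks. They were also wider, with a median of 609 bp against 500 bp. Among peaks higher in kdrl:GFP+ cells, the median difference was 1.84 at promoters, against 2.62 in introns and 2.47 between genes. Among lower peaks it was -1.55 at promoters, against -2.12 in introns and -2.08 between genes.

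**Figure D1:**
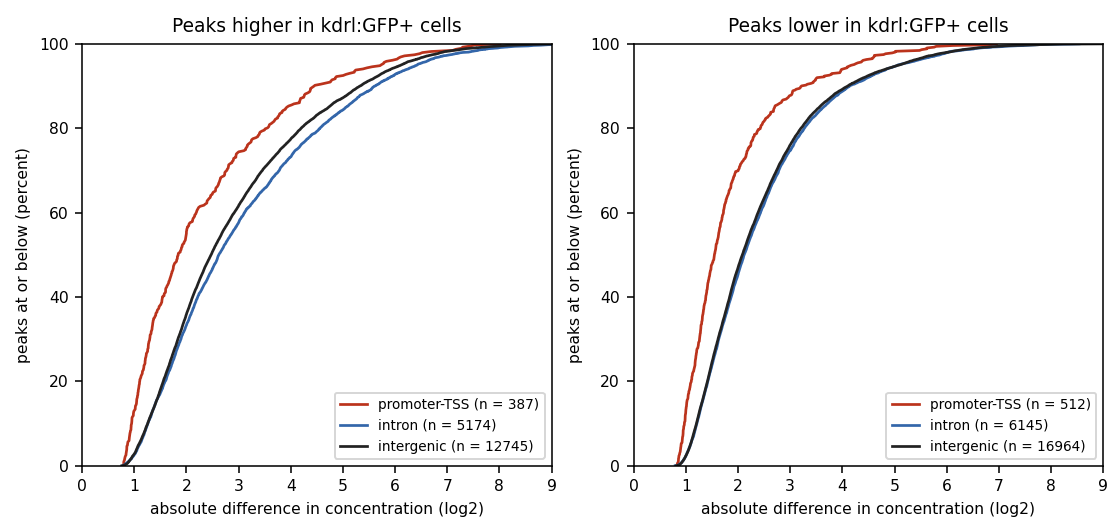
Cumulative share of peaks (vertical axis, percent) at or below a given absolute difference in concentration (horizontal axis, log2), for promoter-TSS, intron and intergenic peaks, with peaks higher in kdrl:GFP+ cells on the left and lower ones on the right. The promoter curve lies to the left of both others over most of its length, with medians of 1.84 for the 387 higher and -1.55 for the 512 lower promoter peaks.

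Promoter peaks were also divided into 4 parts by their mean concentration. In the lowest part the median absolute difference was 2.7 and 98 of 225 peaks differed by more than 3. In the highest part it was 1.21 and 10 of 225 peaks did so. The share higher in kdrl:GFP+ cells stayed between 41.8% and 45.1% in all 4. The parts were formed from the same values as the difference, peaks at the lowest value of a group tend to fall in the lowest part, and weak peaks with small differences are not listed, so these values describe the table only. Promoter and other peaks were not compared at matched signal.

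The peaks sat close to the start sites. The peak centre lay at a median of 82 bp upstream (a distance of -82, quartiles -281 and 6, range -995 to 902), and 729 of the 899 peaks (81.1%) reached the start site itself. Of 818 peaks that could be matched to a Zv9 gene model by symbol, 674 (82.4%) overlapped the first exon, with 289 of 352 among the higher peaks and 385 of 466 among the lower. Position therefore differed little between the directions: the share higher in kdrl:GFP+ cells was 41.0% for the 139 peaks between -1000 and -500 bp, and 45.2% for the 252 peaks centred at or downstream of the start site.

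**Figure D2:**
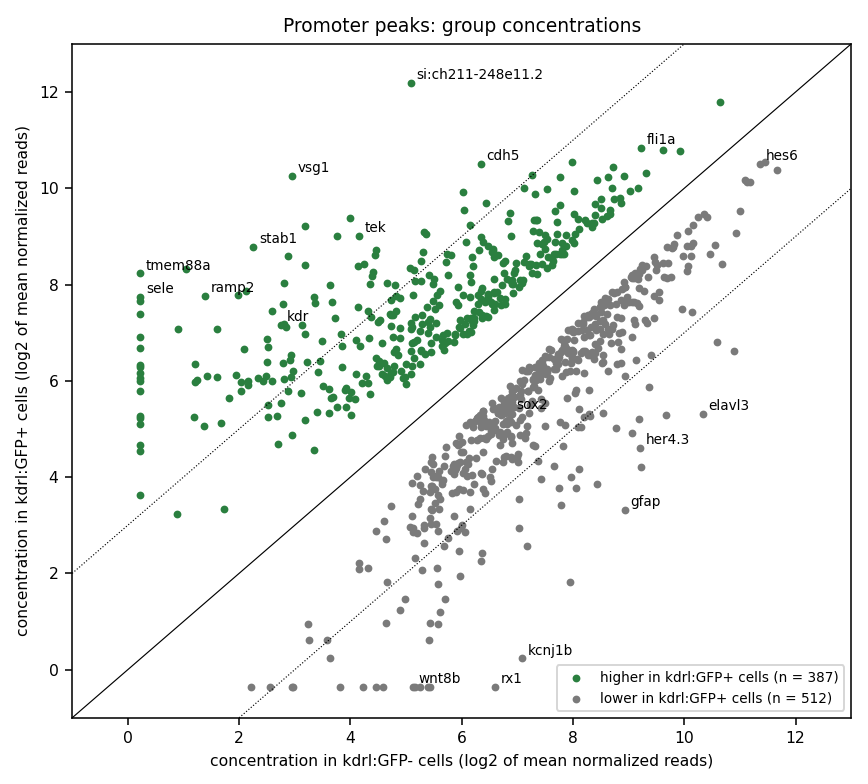
Concentration in kdrl:GFP+ cells (vertical axis) against kdrl:GFP- cells (horizontal axis), both as log2 of mean normalized reads, for the 899 promoter peaks. The solid line marks equal values and the dotted lines a difference of 3 in either direction, past which lie 100 higher and 63 lower peaks. The column of points at 0.22 and the row at -0.36 are peaks at the lowest listed value of a group.

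Peaks without signal in a group are listed at a fixed lowest value, which was -0.36 in kdrl:GFP+ cells and 0.22 in kdrl:GFP- cells. At promoters, 18 peaks were at the lowest value in kdrl:GFP- cells and 14 at the lowest value in kdrl:GFP+ cells. Their differences depend on that value and are not read as folds.

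The label of the sorted cells was set beside the promoters of endothelial genes. The gene list was chosen with earlier results of these data known, so this is not an independent check of the label. From a list of endothelial names, 37 promoter peaks of 34 genes were found. Of these, 36 were higher in kdrl:GFP+ cells (97.3%, interval 85.8% to 99.9%, against 43.0% over all promoter peaks). Their median difference was 2.56, against -0.99 over all promoter peaks, and 17 of them exceeded 3, as did 11.1% of all promoter peaks. Their median concentration was 8.73 in kdrl:GFP+ cells, against 6.05 in kdrl:GFP- cells. No peak of kdrl itself was annotated as promoter-TSS, but 9 of the 10 peaks nearest to kdrl were higher in kdrl:GFP+ cells. Peaks outside promoters were less uniform: of 583 nearest to any gene on the list, 67.8% were higher.

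Growth factor receptors were well represented among the endothelial promoters. The promoter peak of kdr, a second vascular endothelial growth factor receptor gene (chromosome 20, 22293000 to 22293405, overlapping the first exon), stood at 7.16 in kdrl:GFP+ cells, against 2.75 in kdrl:GFP- cells, a 21.3-fold difference. The promoter of tek, the angiopoietin receptor (chromosome 5, 839754 to 840738), stood at 9.01 against 4.15. All 7 other peaks nearest to kdr and all 8 nearest to tek were also higher in kdrl:GFP+ cells. The growth factor receptors flt1 and flt4 differed less, with 7.49 in kdrl:GFP+ cells and 5.53 in kdrl:GFP- cells for flt1 and 6.89 and 4.90 for flt4.

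The receptor for adrenomedullin combines a receptor and an accessory protein, and the promoters of their genes differed to unequal degrees. The promoter of ramp2, the accessory protein (chromosome 3, 36841084 to 36841586), stood at 7.76 in kdrl:GFP+ cells against 1.39 in kdrl:GFP- cells. The promoter of calcrla, the receptor, stood at 9.36 against 8.09. The first was close to closed in kdrl:GFP- cells by this measure, while the second was well above the median of all peaks (5.74) there.

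Genes of the endothelial surface were among those with the largest differences. The promoter of tmem88a, a membrane protein that restrains Wnt signalling (chromosome 10, 22972049 to 22972560, at the first exon), stood at 8.23 in kdrl:GFP+ cells and at the lowest value, 0.22, in kdrl:GFP- cells. That of sele, the leukocyte adhesion molecule E-selectin (chromosome 20, 34001421 to 34001859), stood at 7.74 against 0.22. The promoter of vsg1, now named plvapb, which forms the diaphragms of endothelial pores (chromosome 11, 6082544 to 6083901), stood at 10.25 against 2.95, the largest difference (7.29) among peaks above the lowest value. These peaks had little or no signal in kdrl:GFP- cells.

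The scavenger receptors stab1 and stab2, which clear macromolecules from blood, had promoter peaks at 8.78 in kdrl:GFP+ cells and 2.25 in kdrl:GFP- cells (stab1) and at 6.29 and 0.22 (stab2). The promoter of gpr182, a receptor that takes up chemokines, had 2 peaks, with differences of 5.22 at the start site and 3.71 further upstream (6.05 in kdrl:GFP+ cells against 2.34 in kdrl:GFP- cells). Both were on the same side.

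At the promoter of eltd1, now adgrl4, an adhesion receptor of vessels, 2 neighbouring peaks differed to unequal degrees. The one over the first exon (chromosome 11, 7556025 to 7556636) stood at 7.62 in kdrl:GFP+ cells and 3.36 in kdrl:GFP- cells. The one just upstream (7556720 to 7557781) stood at 9.29 and 8.25, so it was open in both groups. Of the 13 other peaks nearest to eltd1, only 2 were higher in kdrl:GFP+ cells.

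Junction genes followed. The promoter of cdh5, the cadherin of endothelial junctions (chromosome 7, 45432691 to 45433728), stood at 10.51 in kdrl:GFP+ cells against 6.34 in kdrl:GFP- cells. Those of ptprb, a phosphatase that acts on that cadherin, and esama, an adhesion molecule, stood at 9.92 against 6.03 and at 8.49 against 5.27. The promoter of rasip1, needed for vessel lumens, stood at 5.78 against the lowest value, and all 9 of its other peaks were higher. The other peaks of the first 3 genes were less uniform: 4 of 8 were higher for cdh5, 9 of 12 for ptprb and 5 of 9 for esama.

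Promoters of several endothelial transcription factors had clear signal in kdrl:GFP- cells as well, with fli1b and fev, described next, as exceptions. The promoter of fli1a, an ETS factor (chromosome 18, 46990159 to 46993494), stood at 10.85 in kdrl:GFP+ cells against 9.22 in kdrl:GFP- cells. Those of lmo2 and tal1, which work in 1 complex, stood at 9.34 against 7.35 and at 8.46 against 5.73. The differences of these 3 promoters, between 1.63 and 2.73, were smaller than those of the receptors kdr and tek, and no test bears on that ordering.

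The ETS genes etv2 and fli1b lie beside each other on chromosome 16, with promoter peaks within a span of 4.81 kb. The promoter of etv2 stood at 8.70 in kdrl:GFP+ cells and 6.57 in kdrl:GFP- cells. That of fli1b stood at 7.63 and 3.67. Across the ETS and GATA genes, 6 of 7 promoter peaks were higher (interval 42.1% to 99.6%, which includes the 43.0% over all promoter peaks). Among them was fev at 8.59 against 2.88, and the exception was etv4, an ETS factor downstream of fibroblast growth factor signalling (difference -0.97).

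Other vascular factors gave differences near 2: sox7, a Sox factor, had 9.35 in kdrl:GFP+ cells and 7.30 in kdrl:GFP- cells, and klf2a, a factor that responds to blood flow, had 8.57 and 6.58. The arterial Notch ligand dll4 had 7.94 and 6.37. For nfatc1, a factor of endocardial valves, the values were 9.46 and 8.66, which placed its promoter among the smallest differences listed. The 1 endothelial promoter lower in kdrl:GFP+ cells was that of ldb2b, a cofactor of LIM-domain proteins, at 9.53 against 11.00.

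A gene found only through its current name was pecam1a, a junction molecule of endothelial and blood cells. Its promoter peak stood at 8.03 in kdrl:GFP+ cells and 2.82 in kdrl:GFP- cells, and it was singled out after its values were seen. The caveolin genes cav1 and cav2, neighbours on chromosome 25 whose products line the small pits of the endothelial membrane, were singled out likewise. Their promoters stood at 8.11 against 6.58 and at 6.38 against 4.61.

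**Figure D3:**
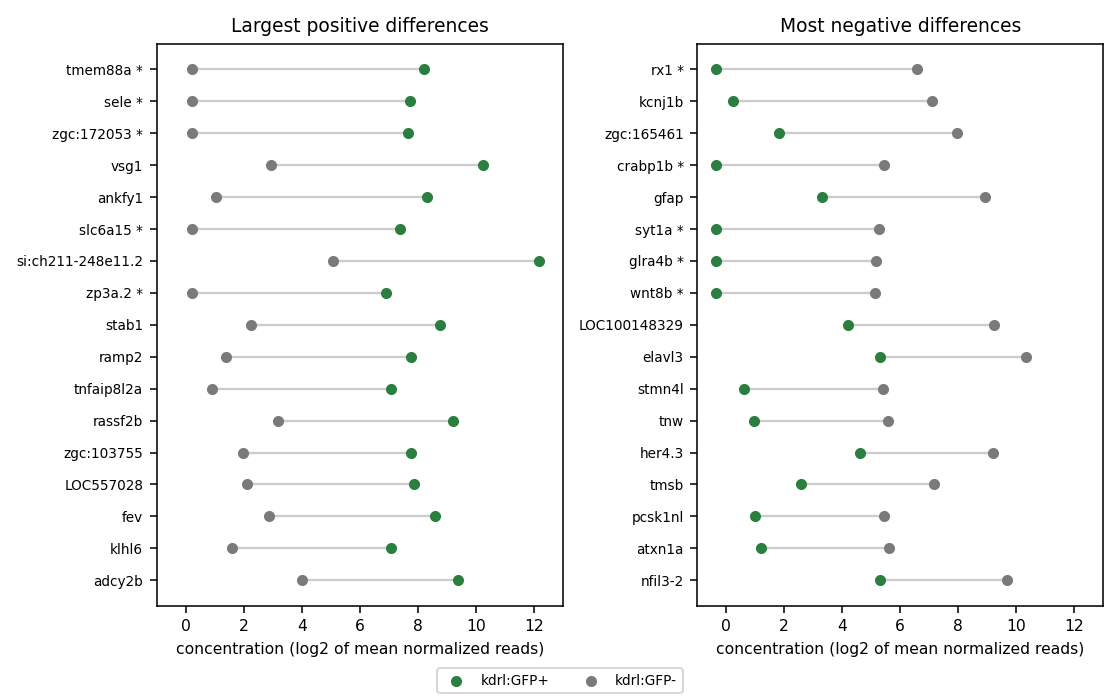
Concentration (log2 of mean normalized reads) in kdrl:GFP+ (green) and kdrl:GFP- cells (grey) at the promoter peaks with the largest positive (left) and most negative (right) differences. Each side shows 12 peaks above the lowest value of either group and 5 at it, marked by an asterisk; they run between tmem88a, with a difference of 8.01, and rx1, with -6.95.

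Not all of the strongest promoters belonged to known vascular genes. The promoter of the gene now named pierce1, listed under a clone name, had the highest concentration of all promoter peaks in kdrl:GFP+ cells, 12.19 against 5.08 in kdrl:GFP- cells. The peak spans chromosome 8, 12062369 to 12066787. That of ankfy1, which encodes an endosomal protein, stood at 8.32 against 1.05, although its 1 other peak was lower. The promoter of slc6a15, an amino acid transporter known mainly from neurons, stood at 7.38 against the lowest value, and both of its other peaks were lower in kdrl:GFP+ cells.

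Further promoters in this range were rassf2b, a Ras-association gene, with 9.23 in kdrl:GFP+ cells and 3.19 in kdrl:GFP- cells, and adcy2b, an adenylate cyclase, with 9.38 in kdrl:GFP+ cells and a difference of 5.38. The promoter of klhl6, known for a role in mouse B cells, had 7.07 and 1.61. Those of zgc:103755 and LOC557028 (now igf2bp2b) had differences of 5.79 and 5.74. The promoters of zgc:172053 and zp3a.2 were at the lowest value in kdrl:GFP- cells, with 7.66 and 6.91 in kdrl:GFP+ cells. That of zp3a.2 lay in the same 10.2 kb span as sele, and its peak did not reach the first exon.

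Blood and immune genes gave a mixed picture. Of 9 promoter peaks on a list of haematopoietic genes, 4 were higher in kdrl:GFP+ cells and 5 were lower (median difference -1.06). That split is close to the 43.0% higher over all promoter peaks. With all peaks within 1000 bp of a start site 57.1% of 14 were higher. The largest difference on the list, and the only one above 3, was that of arpc1b, at 7.99 in kdrl:GFP+ cells against 4.81 in kdrl:GFP- cells. The lysozyme gene lyz, of myeloid cells, stood at 6.15 against 4.58, and ikzf1, a lymphoid factor, at 7.57 against 6.72. The factors cmyb (7.69 against 8.87) and irf8 (7.03 against 8.09) and the antigen-presentation gene cd74a (5.34 against 7.21) were lower in kdrl:GFP+ cells. No promoter-TSS peak was listed for the erythroid factor gata1a, the myeloid factor spi1b or the neutrophil gene mpx, whose other peaks were higher (1 of 1, 2 of 2 and 4 of 4). Of 290 peaks outside promoters nearest to genes on the haematopoietic list, 55.5% were higher, against 44.7% of all differential peaks.

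Genes of immune receptors, cytokines and lymphocyte signalling, a set put together by name after the values were seen, had 24 of 29 promoter peaks higher and a median difference of 3.25. Over all promoter peaks 43.0% were higher and the median difference was -0.99. The promoter of tnfaip8l2a, which dampens immune signalling in mice, stood at 7.08 in kdrl:GFP+ cells and 0.90 in kdrl:GFP- cells. That of cd247l, related to a T-cell receptor subunit, stood at 7.59 against 2.80. The tyrosine kinase gene lck, annotated at separate places on chromosome 17, had 2 promoter peaks, at 4.54 and 5.05 in kdrl:GFP+ cells against 0.22 and 1.37. These peaks had low signal in kdrl:GFP- cells: the median there was 3.73, against 6.82 in kdrl:GFP+ cells. Many of these genes are best known from leukocytes, and the part of blood cells in these values was not tested.

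**Figure D4:**
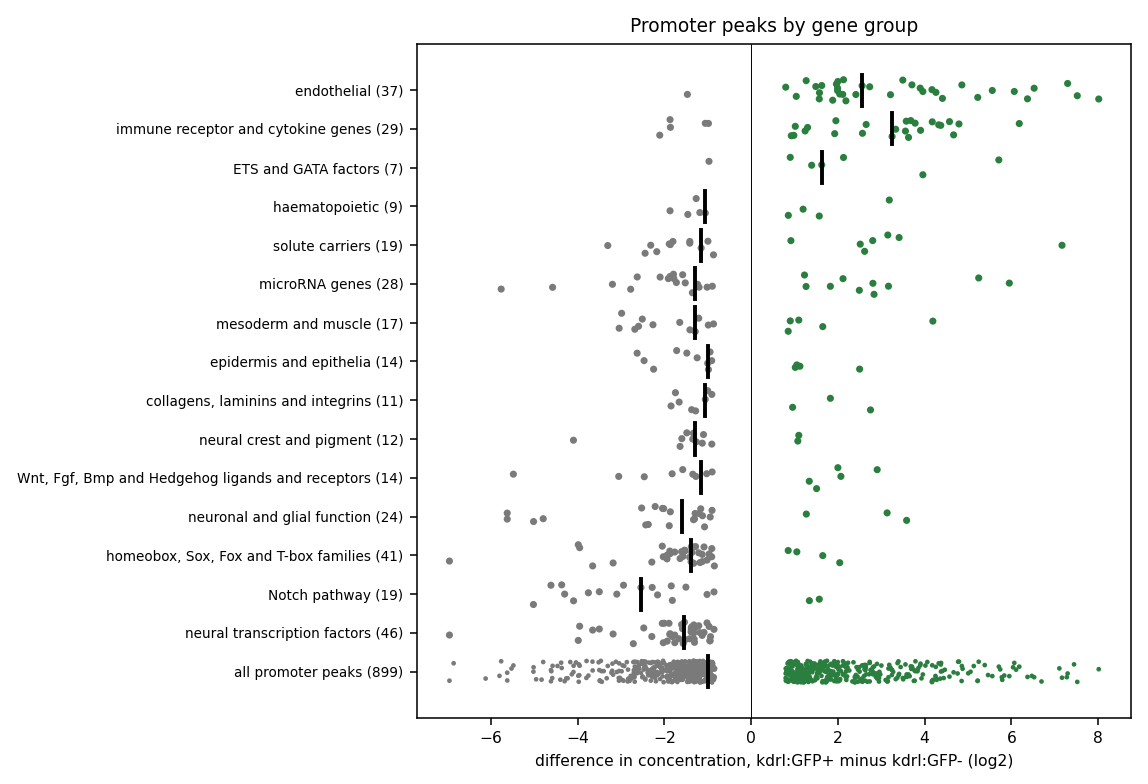
Difference in concentration (log2, kdrl:GFP+ minus kdrl:GFP-, horizontal axis) of each promoter peak by gene group, with the number of peaks in brackets, green above and grey below zero, and a black bar at the median. Of the 37 endothelial peaks 36 lie above zero, and none of the 46 peaks of neural transcription factors does; groups overlap, so a gene can appear in several rows.

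Promoters of neural genes mostly went the other way. All 46 promoter peaks of neural transcription factors were lower in kdrl:GFP+ cells (0% higher, interval 0% to 7.71%, against 43.0% over all promoter peaks). Their median difference was -1.55, equal at this rounding to that of all 512 lower promoter peaks. That list too was chosen with earlier results of these data known. Only 6 of the 46 were below -3, while 17 of the 37 endothelial peaks exceeded 3. Over all promoter peaks 7.01% were below -3 and 11.1% above 3. In kdrl:GFP+ cells 26 of these 46 promoters (56.5%) stood above the median of all peaks (5.75), against 66.2% of all 899 promoter peaks. Many neural factor promoters thus had signal in kdrl:GFP+ cells, though less than in kdrl:GFP- cells. Their share above that median was below that of promoter peaks at large.

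The strongest neural difference was that of rx1, a homeobox factor of the retina (chromosome 22, 4647815 to 4648277), at the lowest value, -0.36, in kdrl:GFP+ cells against 6.59 in kdrl:GFP- cells. The forebrain and eye factor vax1 stood at 5.20 against 9.18, and gsx2, a factor of the ventral forebrain, at 2.42 against 6.37. The neural progenitor factor sox2 stood at 5.33 against 6.87, and neurod, a driver of neuronal differentiation, at 7.43 against 10.15. The promoter of hes6, a repressor of the Hes family, differed little, at 10.50 against 11.36, and was among the 5 promoters with the highest summed signal.

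Genes of differentiated neurons and glia were lower at 21 of 24 promoter peaks (12.5% higher, interval 2.66% to 32.4%, against 43.0% over all promoter peaks). The promoter of elavl3, a neuronal RNA-binding protein, was the broad peak at chromosome 3, 46853932 to 46858235, with 5.32 in kdrl:GFP+ cells against 10.33 in kdrl:GFP- cells, a 32.3-fold difference. That of gfap, the filament protein of radial glia, stood at 3.31 against 8.93. The synaptic vesicle gene syt1a was at the lowest value in kdrl:GFP+ cells and at 5.26 in kdrl:GFP- cells. On this list, 3 promoter peaks were higher in kdrl:GFP+ cells. They were nlgn1, a synaptic adhesion gene (6.37 against 2.79), the guidance receptor unc5a (7.46 against 4.32) and the guidance cue sema3ab (difference 1.27). The list does not hold every neuronal gene. Off it, slc6a15 and a peak of il1rapl1b, both described elsewhere here, were higher as well, so the count holds for the listed names only.

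Further low promoters were those of stmn4l, of the stathmin family of microtubule regulators (0.63 in kdrl:GFP+ cells and 5.42 in kdrl:GFP- cells), and pcsk1nl, a neuroendocrine peptide gene (0.98 and 5.44). The retinoic acid binding protein gene crabp1b, the glycine receptor gene glra4b and the ligand gene wnt8b were all at the lowest value in kdrl:GFP+ cells, with 5.44, 5.16 and 5.12 in kdrl:GFP- cells. The promoter of kcnj1b, a potassium channel gene of ion-transporting skin cells, stood at 0.23 in kdrl:GFP+ cells against 7.09 in kdrl:GFP- cells. The promoter of zgc:165461 stood at 1.83 against 7.95, that of tmsb, a thymosin, at 2.56 against 7.17, and that of nfil3-2, a bZIP factor, at 5.29 against 9.67.

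Most promoters of the Notch pathway were lower in kdrl:GFP+ cells. In this pathway, ligands on 1 cell activate receptors on its neighbour, and many her genes are targets that hold neural progenitors undifferentiated. Of 19 promoter peaks, 17 were lower in kdrl:GFP+ cells (10.5% higher, interval 1.30% to 33.1%, against 43.0% over all promoter peaks). Of the 19, 7 lie in a single gene array on chromosome 23, described below, and are not independent. The interval counts them as separate and is thus too narrow to set the pathway apart, and the median also rests partly on that array. The median difference of the 19 was -2.54, against -0.99 over all promoter peaks. Among these genes, hes6, her8a and her3 are also on the list of neural transcription factors. The 2 higher ones were the ligand dll4 and the receptor notch2 (7.70 against 6.35). The ligands dlc (6.39 against 8.54) and jag1a (difference -1.02) were lower, as were all of the her promoters listed.

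The her4 genes form a tandem array on chromosome 23. Within 25.3 kb (21740942 to 21766201) lay 7 promoter peaks of 6 genes, all lower in kdrl:GFP+ cells. Their differences ran between -2.28 at her12 and -5.02 at LOC100148329 (now her4.2), with her4.3 at 4.60 in kdrl:GFP+ cells against 9.21 in kdrl:GFP- cells. The copies are similar in sequence, so reads may be shared between them and the 7 values are not independent. On chromosome 15, her8.2 (5.02 against 8.77) and her13 (5.05 against 8.14) lay less than 20 kb apart. On chromosome 11, her15.1 and her15.2 had differences of -1.84 and -2.54.

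Start sites of microRNA genes made up 28 peaks of 27 genes. The annotated start of such a record is that of the short hairpin, which can lie far from the start of the primary transcript, so these peaks need not be promoters in the usual sense. They could be named only through their RefSeq accessions. In all, 10 stood higher in kdrl:GFP+ cells and 18 stood lower. The share higher was 35.7%, with an interval of 18.6% to 55.9% that includes the 43.0% over all promoter peaks.

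The higher ones included microRNAs known from vessels and blood. The peak at mir126b, of the endothelial miR-126 family (chromosome 11, 38494394 to 38496156), stood at 9.01 in kdrl:GFP+ cells against 3.77 in kdrl:GFP- cells, and all 13 of its other peaks were higher. The blood cell microRNAs mir223 (8.62 against 5.81), mir150 (9.33 against 6.83) and mir142a (7.64 against 6.41) were higher as well. Not all followed that pattern: dre-mir-429, known from epithelia (8.30 against 5.13), and dre-mir-338-2, known from the nervous system (7.73 against 4.90), were also higher, and mir27b, known from vessels among other tissues, was lower (3.92 against 5.64). The largest difference, 5.95, was that of dre-mir-29b3, which was at the lowest value in kdrl:GFP- cells.

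The lower ones included the microRNAs of neurons. All 5 listed copies of miR-124, the main neuronal microRNA, were lower, between dre-mir-124-4 at the lowest value in kdrl:GFP+ cells against 5.40 in kdrl:GFP- cells, and mir124-6 at 8.27 against 10.05. None of the other peaks listed nearest to 4 of these copies was higher, and mir124-6 had no other peak. The neural microRNAs mir9-5 (6.18 against 7.54), mir9-6 (3.34 against 5.44), mir219-2 (6.78 against 8.69) and mir219-3 (3.85 against 8.43) were lower too.

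**Figure D5:**
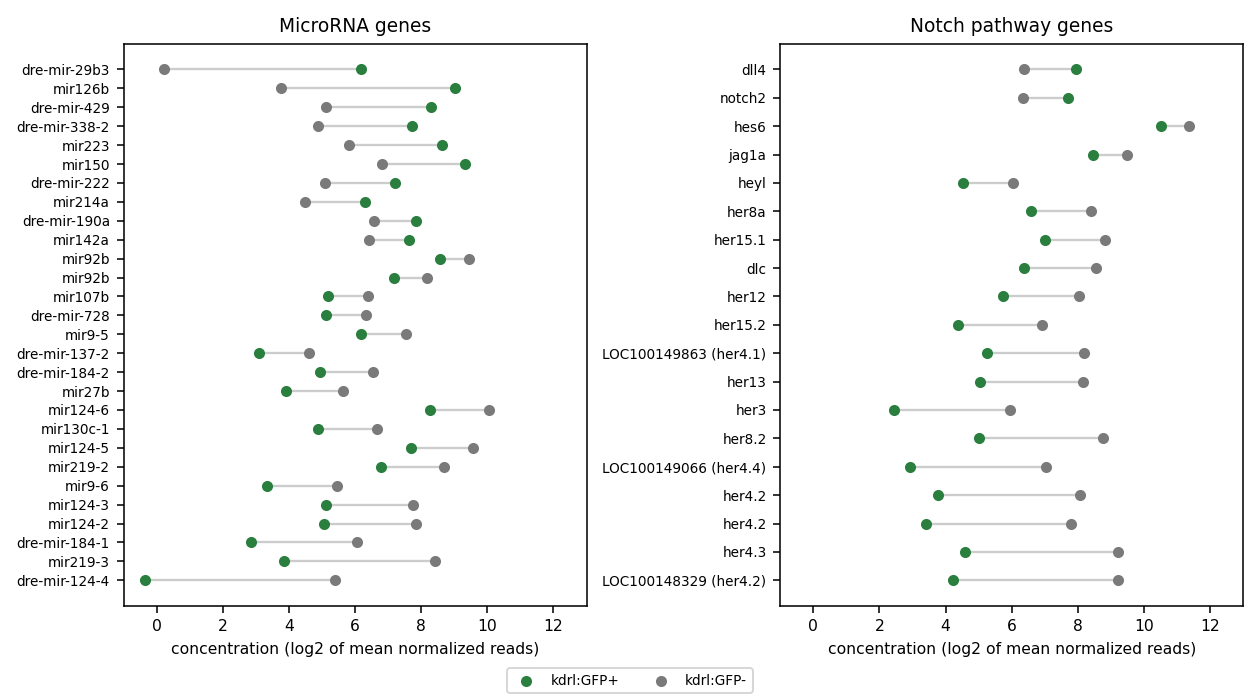
Concentration (log2 of mean normalized reads, horizontal axis) in kdrl:GFP+ (green) and kdrl:GFP- cells (grey) at the 28 peaks at microRNA gene starts (left) and the 19 promoter peaks of Notch pathway genes (right), ordered by difference. The miR-124 and her genes lie at the bottom, with green points left of grey ones, while mir126b stands at 9.01 against 3.77 near the top.

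For the next groups the share of lower peaks is to be read against 57.0% over all promoter peaks, and their intervals include it unless stated. These intervals count peaks as separate and cover counting error only. The lists overlap and were chosen with earlier results known, so the intervals do not test a group. Of 14 promoter peaks of Wnt, Fgf, Bmp and Hedgehog ligands and receptors, 9 were lower, among them wnt3 (5.03 in kdrl:GFP+ cells and 8.08 in kdrl:GFP- cells) and wnt8b. The 5 higher ones were bmp6, bmp10, bmp16, fgf4 and fgf18a, with differences between 1.34 and 2.91. The growth factor genes fgf3 and fgf4 are neighbours on chromosome 7 and went in opposite directions, with 5.46 against 6.73 for fgf3 and 6.47 against 4.47 for fgf4.

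Listed mesoderm and muscle genes were lower at 12 of 17 promoter peaks (29.4% higher, interval 10.3% to 56.0%, against 43.0% over all promoter peaks). The intermediate filament gene desma stood at 2.94 in kdrl:GFP+ cells and 5.99 in kdrl:GFP- cells, and the muscle factor myf5 at 2.86 and 5.12. The factors gata5, hand2, tbx1 and tbx20, of heart and pharyngeal precursors, were higher by 0.86 to 1.65. The fifth higher peak on the list was that of si:ch211-157b11.14 (now perm1b), with 6.71 against 2.52. The list does not hold every muscle gene. Off it, tnni1c, tnni3k and dysf had promoter peaks higher in kdrl:GFP+ cells, so the count holds for the listed names only.

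Epidermal and epithelial genes were lower at 10 of 14 promoter peaks, with a median difference of -0.99, equal to that of all promoter peaks at this rounding. The keratin genes krt4 (5.65 in kdrl:GFP+ cells and 7.89 in kdrl:GFP- cells) and cyt1 (3.69 and 6.15) were lower. The keratin gene zgc:77517, now krt18b, went the other way with 8.89 and 6.38. Neural crest and pigment genes were lower at 10 of 12 peaks, with trpm1b, a channel of pigment cells, at 2.25 against 6.34.

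The remaining groups were small or divided. Collagens, laminins and integrins were lower at 8 of 11 promoter peaks, and solute carriers at 12 of 19, shares whose intervals include that of all promoter peaks. Homeobox, Sox, Fox and T-box genes were lower at 37 of 41 (9.76% higher, interval 2.72% to 23.1%), and many of them are also on the neural list. Cadherins and claudins gave 2 of 5 higher and Hox genes 1 of 3; with all peaks within 1000 bp of a start site, the Hox share was 77.8% of 9 peaks, on the other side. Genes of translation, the proteasome, splicing and polymerases had 2 promoter peaks in the table, beside 683 other peaks. Genes of DNA replication and the cell cycle had 4, beside 204 other peaks. Promoter peaks made up 2.04% of the whole table. How many promoters of these classes were compared is unknown, so the counts are not read as a scarcity.

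Peaks elsewhere near the same genes often shared the direction of the promoter. For the 380 start sites whose promoter peaks were higher, 301 had other differential peaks, and 947 of these 1527 peaks (62.0%) were higher as well. For the 506 start sites whose promoter peaks were lower, 383 had other peaks, of which 629 of 2205 (28.5%) were higher. Both figures stand beside the 44.7% over the whole table. With no other differential peak stood 79 of the higher and 123 of the lower start sites, so their promoter was the only listed site.

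Promoter differences were mostly smaller than those of the other peaks of the same gene. Of 696 promoter peaks with other peaks nearby, 500 (71.8%) had a smaller absolute difference than the median of those other peaks. Promoter peaks also had the higher signal at large, and this comparison was not made at matched signal. For neural transcription factors this held at 36 of 45 promoters, and for endothelial genes at 21 of 36. In the endothelial group, 97.3% of promoter peaks were higher, against 67.8% of 583 other peaks nearest to any gene on the list. In the neural factor group, 0% of promoter peaks were higher, against 16.9% of 1677 other peaks nearest to any gene on that list. These other peaks include those of listed genes without a promoter peak, so promoter and other shares come from unlike sets of genes. All of these peaks come from the same libraries and are not independent.

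Some genes went against this. The promoters of mef2ca and mef2cb, muscle and vascular factors of the MADS family, were lower (5.16 in kdrl:GFP+ against 6.80 in kdrl:GFP- cells, and 3.93 against 6.52), whereas 6 of 6 and 13 of 15 of their other peaks were higher. At tnw, the gene of an extracellular matrix tenascin, the promoter stood at 0.96 against 5.57 while 11 of 12 other peaks were higher.

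Of the 15 genes with 2 promoter peaks, 13 had both in the same direction. The exceptions were il1rapl1b, a synaptic adhesion gene, with adjoining peaks at 4.22 against 5.84 and at 6.47 against 5.15, and LOC100006857, which is annotated at separate places on chromosome 11 and had differences of -0.84 and 1.90. The 2 peaks of atxn1a, a transcriptional regulator, were both lower (differences -3.45 and -4.40). Most of these pairs lie less than 20 kb apart, so their peaks are not independent. Whether they agree beyond the overall split, with 43.0% of all promoter peaks higher, was not tested.

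Neighbouring genes were examined by grouping promoter peaks less than 20 kb apart. Of 25 such groups with several genes, 6 had all peaks higher, 13 had all lower and 6 were mixed. Most of these groups hold only 2 peaks, and 43.0% of all promoter peaks were higher. Some join related genes, such as the her4 array, so whether neighbours agree beyond the overall split was not tested. Among the groups with all peaks lower were the lens crystallin genes crybb1 (4.03 in kdrl:GFP+ cells and 6.09 in kdrl:GFP- cells) and cryba4 (5.81 and 8.06), and the keratins cyt1l and cyt1.

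At the other end were strong promoters with small differences. The highest summed signal was found at zgc:85936 (11.79 in kdrl:GFP+ cells and 10.64 in kdrl:GFP- cells), followed by zgc:109782 (10.38 and 11.66), the growth factor receptor gene tgfbr1b (10.55 and 11.44), hes6 and the Wnt antagonist gene sfrp5 (10.14 and 11.18). Next to zero stood pdia5, a protein folding enzyme (difference 0.80), and stxbp2, a vesicle fusion gene (0.80), on the higher side, and zgc:63972 (-0.83) and the actin regulator cap2 (-0.84) on the lower. The difference at pdia5 was the smallest in size of all promoter peaks, and peaks that did not pass the threshold are not listed.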

How the data were processed

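Per the labels and the study's methods, reads were aligned with BWA 0.7.12 to Zv9, peaks were called per library against DNA not treated with transposase, and DiffBind with edgeR compared groups at p below 0.05. The study made 4 replicates per group and removed 2 outlying kdrl:GFP+ replicates, leaving 2 kdrl:GFP+ and 4 kdrl:GFP- libraries, whereas the labels give 3 and 3. The authors deposited 1 log2 concentration per group, with libraries pooled, and annotated peaks with HOMER. Such values hide the spread between libraries, and a single outlying library could move them. Columns with the authors' fold changes and p-values, and gene-table columns of log fold changes, average expression and test statistics, were not used, nor were 6 per-sample columns matching no label. That table served for exon positions.

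Here the concentrations were subtracted (pandas 2.3.3, Python 3.11.15) and shares given exact intervals (scipy 1.17.1). Helper functions were tested on simulated data. Current symbols came from RefSeq accessions (862 of 899 peaks). Members and gene lists were chosen with earlier results of these data known. Named were the 12 largest differences in each direction above the lowest value, 5 in each direction at it, the 5 highest summed concentrations, 2 on each side of zero, genes with promoter peaks in opposite directions and promoters of listed genes, the largest first.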

Additional observations from a re-analysis of the deposited data

How the results depend on the processing

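Defining promoter peaks as all 1410 peaks within 1000 bp of a start site gave a higher share of 46.8% and a median difference of 1.68 for the higher peaks, and the cause of the shift was not tested. With a linear 3-fold limit in place of a log2 difference of 3, 229 promoter peaks counted as higher and 243 as lower, against 100 and 63. The balance of strong differences thus turned round. It did so over all peaks too, with 15535 higher and 17297 lower at the linear limit, against 7854 and 5842, so the turn is not particular to promoters. Subtracting log2 of the width in kb lowered the excess of promoter over other peaks in kdrl:GFP- cells to 0.54, against 0.88. The other 69 of 74 values under alternatives stayed within their intervals or, for counts, within 1.5 times. For small lists these intervals are wide: within 1000 bp the share higher was 77.8% for Hox genes (33.3% before), 57.1% for haematopoietic genes (44.4%), 50% for translation, proteasome, splicing and polymerase genes (100%), 50% for solute carriers (36.8%), 16.1% for homeobox, Sox, Fox and T-box genes (9.76%), 25% for neural crest and pigment genes (16.7%, and 9.09% with current symbols only) and 2.82% for neural transcription factors (0%). The values in range include the share centred on the mean difference and the number of genes above 3, which were chosen after seeing the data. The centring could not change that share: the mean difference was -0.0041, while the smallest absolute promoter difference was 0.80. All peaks lie on the 25 numbered chromosomes, so leaving out scaffolds changes nothing. Motif counts were not run, as no genome sequence was used here. No paired analysis was possible because the values are pooled per group, and for the same reason no library could be left out. Depth is unknown, which limits every single value near the lowest concentrations.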
